A study of Homo sapiens with 6 samples.

Results

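Amino acids cross the membranes of human cells through solute carriers, and 7 of the solute carrier (SLC) families that carry them were followed here: SLC1, SLC3, SLC6, SLC7, SLC36, SLC38 and SLC43. The genes were taken by name from the deposited expression table, as every row whose symbol starts with one of these family names followed by a member number. The rule took 60 of the 20036 rows. Of these, 59 are transporter genes or their subunits, and 1, SLC7A6OS, is a gene on the strand opposite SLC7A6 that is not a transporter.

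The data were RNA-seq libraries of PANC-1, a long-used line grown from a human pancreatic carcinoma, with 3 libraries of cells that received a null control virus and 3 of cells that received a lentivirus that knocks down SHMT2. SHMT2 is the mitochondrial enzyme that splits serine into glycine and a one-carbon unit, so its substrate and product are both amino acids that these carriers move. No other treatment is named for either group. Hairpin, time after infection and selection of infected cells are not stated by the labels. Nor is it stated that replicates came from separate cultures, so p-values here reflect the spread among the libraries sequenced and could be technical in origin.

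The carriers work in different ways. SLC7 light chains such as SLC7A5 and SLC7A11 are exchangers that need a heavy chain to reach the cell surface, SLC3A2 in most tissues. A disulfide bond joins the chains. SLC38 and most SLC6 carriers use the sodium gradient to concentrate their substrates, and SLC36A1 uses protons. SLC43 carriers let amino acids pass down their gradient, and some members work on the lysosome rather than at the surface. In pancreatic cancer cells, glutamine uptake and cystine uptake have been studied as supports of growth and of glutathione synthesis.

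Library totals ran from 15405884 to 19075734 counts, of which these 60 genes took 0.367% to 0.44%. SHMT2 itself gave 2113, 2284 and 2417 counts in the 3 controls and 139, 56 and 101 under knockdown, a log2 fold change of -4.80 (SE 0.23, adjusted p = 1.04e-05). In each group 1 library stood apart, control replicate 1 and knockdown replicate 2. The chi-square per degree of freedom between libraries was 2.04 for the other pair of controls and 2.4 for the other pair of knockdowns, against 24.6 to 72.3 for every pair that held one of these libraries. Knockdown replicate 2 also had 10.4% of its counts in mitochondrially encoded genes, against 4.72% to 6.86% elsewhere. Among cell type markers, the 8 epithelial genes summed to 1430 to 1770 CPM (counts scaled to the size of each library) in control and 1990 to 2420 CPM in knockdown libraries, most of it KRT8 (947 ± 101 and 1410 ± 90.8 CPM). Of these 8 genes, 4 were called higher and 2 lower. KRT19 went from 7 counts in the controls together to 3941 under knockdown, while EPCAM fell from 18.1 ± 0.527 to 6.95 ± 0.863 CPM and SOX9 from 265 ± 7.23 to 201 ± 34 CPM. The 5 acinar markers summed to at most 0.696 CPM in any library, with 4 of them at 0, and the 5 immune and 4 endothelial markers to at most 0.57 and 0.466 CPM. Of 6 fibroblast markers, COL1A1 made up nearly all of the sum, which was 78.6 to 92.3 CPM in controls and 42.2 to 47.5 CPM in knockdown libraries. COL1A1 was called lower (log2 fold change -0.92, adjusted p = 0.000311), and DCN and COL1A2 had no counts. The part of these marker changes in the results that follow was not tested. In the endocrine list INS and NEUROD1 had no counts, and its sum lay between 9.57 and 11.1 CPM.

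Of the 60 genes, 27 had enough counts to be tested, and 15 of the 27 (55.6%) differed between the groups at an adjusted p below 0.05 (edgeR quasi-likelihood test, Benjamini-Hochberg over all 12292 genes tested). Over all tested genes the share was 51.8%, so a call as such does not set these genes apart. Their directions were 12 lower and 3 higher in the knockdown libraries, whereas 25.1% of all tested genes were lower and 26.7% higher. With libraries scaled by their totals alone, the median over all genes moved to 0.09, 3766 genes were higher and 2491 lower, and these genes stood at 4 higher and 10 lower. One of the 3 called higher, SLC7A2, reached the test only through its knockdown libraries, so its call is no support for a direction. The median log2 fold change was -0.31, against 0 over all tested genes, and the median size without regard to sign was 0.48 against 0.44. Changes of at least 2-fold were seen in 6 of the 27 (22.2%, against 15.6% of all tested genes). In 19 of the 27 every library of one group lay above every library of the other (70.4%, against 61.4%). In bulk RNA, fewer cells that express a gene and less RNA per cell cannot be told apart.

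**Figure D1:**
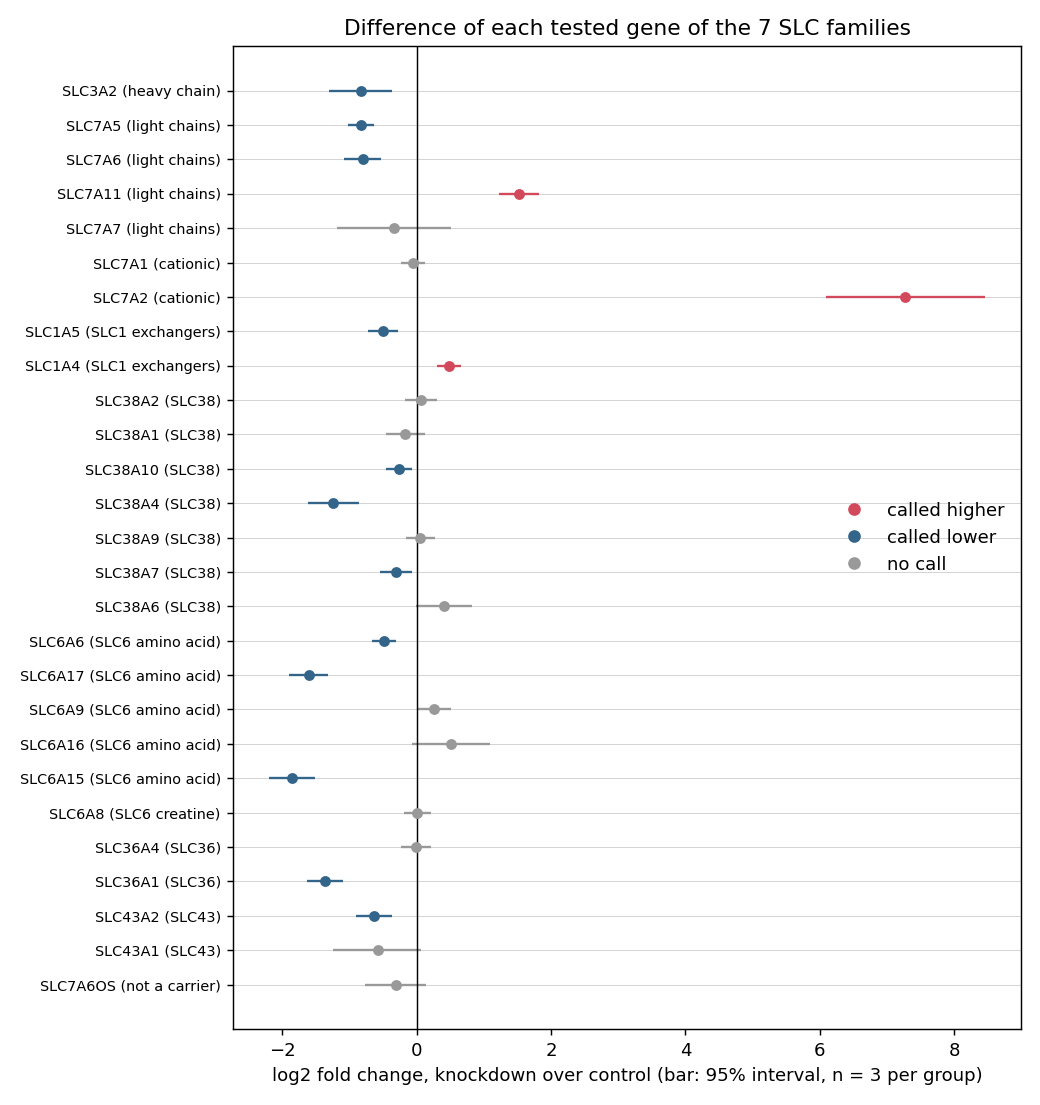
Log2 fold change (knockdown over control, x axis) of each of the 27 tested genes, ordered by role, with 95% intervals from the edgeR fit (n = 3 libraries per group). The 12 genes called lower lie between -0.26 and -1.85, and of the 3 called higher SLC7A2 lies far from SLC7A11 and SLC1A4, which are at 1.52 and 0.48.

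Without both libraries that stood apart, 5 of the 27 were higher and 13 lower (66.7% called, where 73.6% of all tested genes were). The 15 genes called with all libraries were called there too, and SLC38A2, SLC38A6 and SLC7A6OS were added. That fit rests on 2 libraries per group that differ little from each other.

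Levels between genes are compared per length, as FPKM (counts scaled by gene length and library size). The deposited lengths were used, and for some genes they differ from the exon bases of GENCODE 29. SLC3A2 has 6392 and 5178 bases, and SLC6A15 has 20154 and 8781. Ranks and ratios between genes rest on these lengths. SLC38A2, a sodium-coupled carrier of small neutral amino acids and glutamine, was the highest of the 60 genes in the control libraries at 205 ± 24.2 FPKM (mean ± SD, n = 3). Next were SLC7A5 at 118 ± 1.6, SLC38A1 at 78.1 ± 13.5, SLC3A2 at 44.6 ± 5.57 and SLC1A5 at 42.5 ± 0.671 FPKM, of which the last pair differed by less than the spread of SLC3A2. These 5 genes made up 78.3% ± 0.927 of the summed FPKM of all 60 in control libraries and 76.4% ± 0.0812 in knockdown libraries. Then came SLC7A1 at 28.3 ± 0.633, SLC6A6 at 24.8 ± 0.576, SLC6A8 at 19.3 ± 1.15, SLC38A10 at 10.4 ± 0.503 and SLC36A4 at 7.79 ± 0.789 FPKM. The other 17 tested genes lay at or below the 7.37 FPKM of SLC1A4. The summed FPKM of the 60 genes was 659, 607 and 603 in controls and 574, 536 and 576 in knockdown libraries, and the share of SLC38A2 in it went from 32.8% ± 2.17 to 40.4% ± 1.01. Between libraries of a group, the 25 tested genes with a control mean of at least 1 CPM had a median coefficient of variation of 6.37% in controls (1.69% to 29.5%) and 6.73% in knockdown libraries (1.36% to 27.9%).

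**Figure D2:**
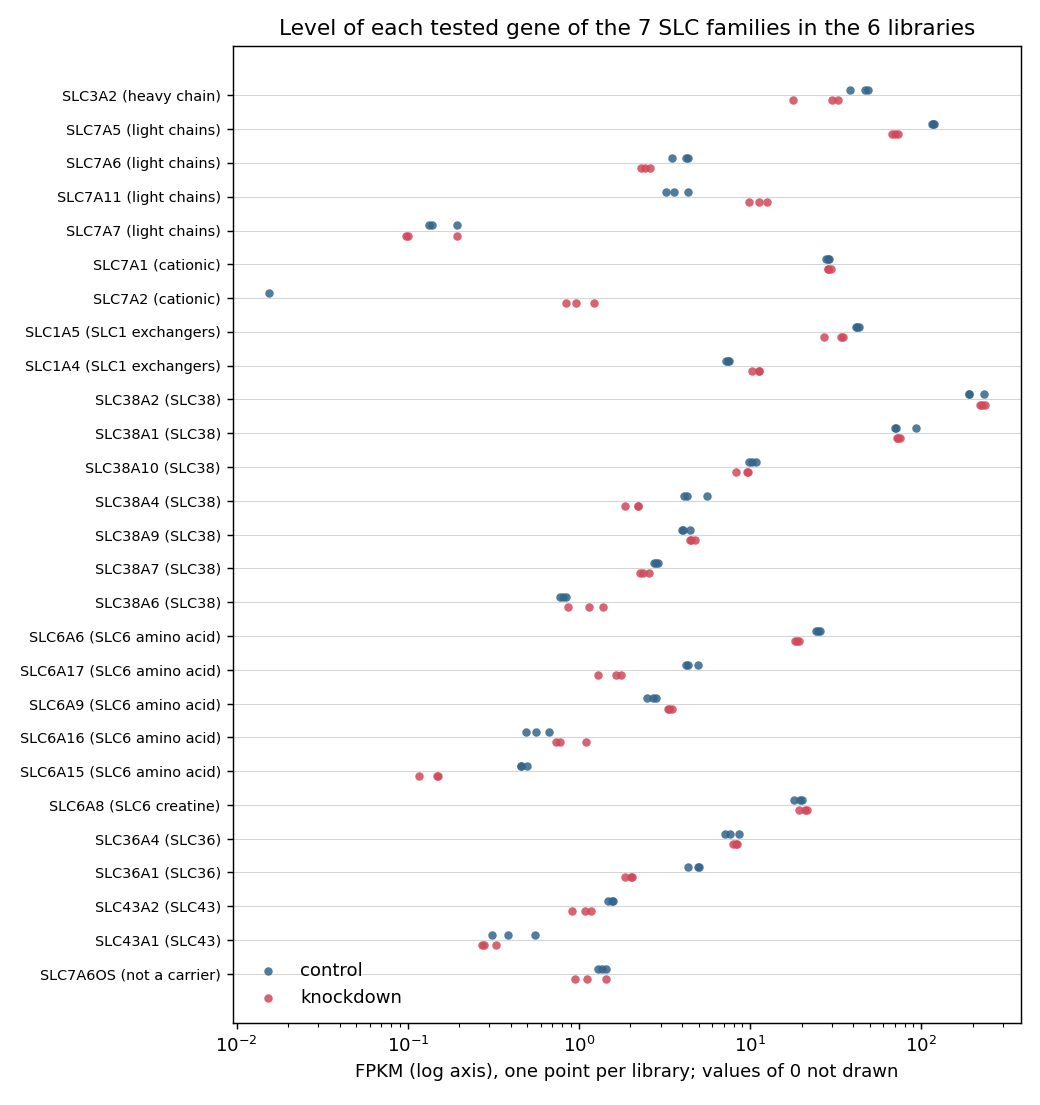
FPKM (x axis, log scale) of the 27 tested genes in each of the 3 control and 3 knockdown libraries, ordered by role and then by control level, with 1 point per library and values of 0 left out. The groups are clearly parted in SLC7A11, SLC7A2, SLC6A15, SLC6A17, SLC36A1 and SLC38A4, and lie on each other in SLC7A1 and SLC38A2.

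The heavy chain and its light chains did not move as a block. SLC3A2, SLC7A5 and SLC7A6 fell, while SLC7A11, the cystine and glutamate exchanger that supplies cysteine for glutathione, rose. SLC3A2 (ENSG00000168003, chr11:62856004-62888880, plus strand, as the table gives it) stood at 251, 307 and 324 CPM in control replicates 1, 2 and 3 and at 182, 116 and 198 CPM in the knockdown replicates. The groups did not overlap, and the lowest value was that of knockdown replicate 2, one of the libraries that stood apart. This was a log2 fold change of -0.83 (SE 0.2) at an adjusted p of 0.0104, and it was -0.73 (SE 0.041) without the 2 libraries that stood apart.

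SLC7A5, which brings leucine and other large neutral amino acids in against glutamine, stood at 566, 585 and 579 CPM in the control libraries and at 304, 340 and 332 CPM in the knockdown libraries. Each group was tight and the fall was clear in every library, with a log2 fold change of -0.83 (SE 0.082, adjusted p = 0.000213). SLC7A6, which exchanges cationic for neutral amino acids, went from 27.3, 34 and 33.2 CPM to 18.8, 17.8 and 17.4 CPM, a log2 fold change of -0.80 (SE 0.12, adjusted p = 0.00109). Of its exon bases 44.4% are shared with SLC7A6OS on the opposite strand. No strand setting is given, so reads there cannot be assigned with certainty, and both levels are uncertain. SLC7A6OS stood at 7.3, 7.01 and 7.72 CPM and then at 4.72, 7.64 and 5.54 CPM, with overlapping groups and no call (adjusted p = 0.219).

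SLC7A11 (ENSG00000151012, chr4:138164097-138242349, minus strand) stood at 42.7, 32 and 35.6 CPM in control replicates 1, 2 and 3 and at 115, 97.2 and 103 CPM in the knockdown replicates. The groups were far apart, with every knockdown library well above every control. The rise was 2.86-fold, or 1.52 on the log2 scale (SE 0.13, adjusted p = 0.000113). SLC7A7, the other exchanger of cationic for neutral amino acids, was near the floor of detection in both groups, with 40 counts in the controls and 38 in the knockdown libraries (adjusted p = 0.474).

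Light-chain message therefore changed in make-up as well as in amount. The summed FPKM of the 8 SLC7 light chains was 124, 127 and 126 in the control libraries and 82.7, 82.1 and 87.5 in the knockdown libraries. SLC7A11 made up 3.49%, 2.54% and 2.84% of it in the controls and 15.2%, 12% and 12.9% in the knockdown libraries, while SLC7A5 went from 93.7% ± 0.228 to 83.5% ± 1.86 (SD, n = 3). SLC7A5 remained the main light chain in both groups. The FPKM of SLC7A5 was 32.2 ± 5.13 times that of SLC7A11 in controls and 6.31 ± 0.881 times in knockdown libraries. SLC7A11 stood at 0.085 ± 0.0243 of the SLC3A2 level in controls and at 0.441 ± 0.107 in knockdown libraries. The ratio of summed light chains to SLC3A2 was 3.24, 2.72 and 2.57 in controls and 2.75, 4.64 and 2.68 in knockdown libraries, so the groups overlapped and the high value was again knockdown replicate 2.

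**Figure D3:**
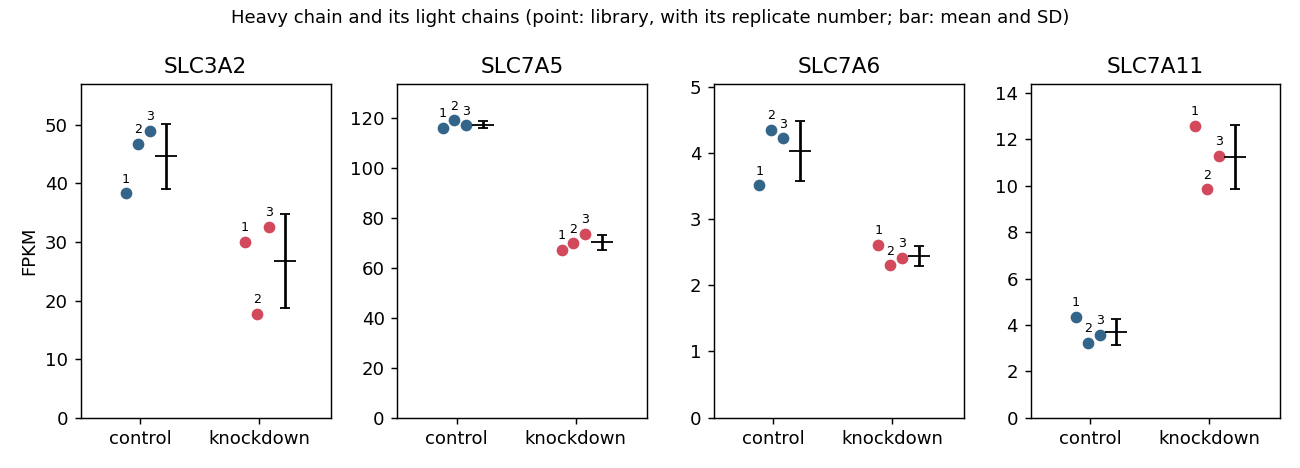
FPKM (y axis from 0, a scale for each panel) of the heavy chain SLC3A2 and the light chains SLC7A5, SLC7A6 and SLC7A11, with 1 point per library labelled by its replicate number and the mean and SD of each group (n = 3). The first 3 genes are lower in all knockdown libraries, with SLC3A2 lowest in replicate 2 at 17.7 FPKM, and SLC7A11 goes from 3.22 to 4.33 FPKM in controls to 9.85 to 12.6 FPKM.

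The starts of the genes that fell together in this complex, the heavy chain and 2 of its light chains, are shown as the 250 bases before the RefSeq start (GRCh38.p14), 5′ to 3′ on the gene's strand. SLC3A2 lies at chr11:62881449-62881698 on the plus strand, SLC7A5 at chr16:87869508-87869757 on the minus strand and SLC7A6 at chr16:68264276-68264525 on the plus strand. The table's SLC3A2 gene begins upstream of that RefSeq start, at 62856004, so the window is that of the RefSeq start and not of all its transcripts. Capitals mark matches to TGACNNNGC, the core of the antioxidant response element, the site bound by NRF2 with a small MAF partner.

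SLC3A2: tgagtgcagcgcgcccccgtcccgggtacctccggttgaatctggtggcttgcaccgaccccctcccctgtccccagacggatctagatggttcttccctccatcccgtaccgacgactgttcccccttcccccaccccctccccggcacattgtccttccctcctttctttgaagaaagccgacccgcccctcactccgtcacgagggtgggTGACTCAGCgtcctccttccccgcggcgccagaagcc
SLC7A5: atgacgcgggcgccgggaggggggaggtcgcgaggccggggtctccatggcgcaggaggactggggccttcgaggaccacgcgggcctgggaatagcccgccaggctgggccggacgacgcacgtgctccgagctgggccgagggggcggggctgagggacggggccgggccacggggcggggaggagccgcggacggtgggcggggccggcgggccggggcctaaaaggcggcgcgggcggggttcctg
SLC7A6: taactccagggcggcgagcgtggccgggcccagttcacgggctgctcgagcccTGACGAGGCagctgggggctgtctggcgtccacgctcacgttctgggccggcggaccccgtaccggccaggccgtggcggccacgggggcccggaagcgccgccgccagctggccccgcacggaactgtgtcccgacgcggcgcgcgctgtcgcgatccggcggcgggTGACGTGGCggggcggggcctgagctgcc

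The 3 windows are rich in G and C (65.6%, 79.6% and 77.6%, against a median of 58% over all RefSeq windows). SLC3A2 holds 1 match, at bases -37 to -29 from the start, whose letters also contain the AP-1 site TGACTCA, and SLC7A6 holds 2, at -197 to -189 and -29 to -21. On both strands, 11% of 27305 RefSeq windows of this length hold such a match, and 4 of the 23 windows found for tested genes (17.4%) do. The other 2 are SLC7A1 and SLC7A7, at -85 to -77 and -88 to -80. The core of the C/EBP-ATF response element, TGATGNAA, is in 3.19% of all windows and in none of these 23; among all 45 windows found for the 60 genes it is in that of SLC1A3, a glutamate carrier with 2 counts in all. SLC7A11, SLC6A15 and SLC1A4 had no entry. A match is a string of letters and not a site shown to be bound. The lack of a match says nothing about sequence outside these 250 bases. At a share of 3.19% over all windows, none in 23 cannot show that the element is rarer here.

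The cationic amino acid transporters, which carry arginine, lysine and ornithine without a heavy chain, differed among themselves. SLC7A1, the widely expressed arginine carrier, stood at 224, 228 and 220 CPM in controls and at 208, 224 and 216 CPM in knockdown libraries, with overlapping groups and a log2 fold change of -0.05 (95% interval -0.23 to 0.13). SLC7A2, its inducible relative on chromosome 8, was seen with 0, 0 and 2 counts in the controls and with 126, 127 and 178 under knockdown. That is 180 times the control level, with a 95% counting interval of 49.6 to 1490 (exact binomial, counting error only). The control level rests on the 2 counts of control replicate 3 alone. The gene passed the filter on low counts only through its knockdown libraries, so its edgeR call (adjusted p = 4.68e-05) adds nothing to these counts. Its fitted log2 fold change depends on the prior count added to each library, and was 7.27 with all libraries and 10.07 without control replicate 3. Even so, at 1.01 ± 0.201 FPKM it stayed far below the 28.9 ± 0.643 FPKM of SLC7A1 in the same libraries. SLC7A3, SLC7A4 and SLC7A14 had at most 1 count in all.

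Of the SLC1 family, SLC1A4 and SLC1A5, sodium-dependent exchangers of neutral amino acids, changed in opposite directions. SLC1A5, the main glutamine exchanger of many tumour cells, went from 143, 148 and 146 CPM in controls to 107, 91.9 and 111 CPM (log2 fold change -0.50, SE 0.095, adjusted p = 0.00378). SLC1A4, which prefers serine, alanine and cysteine, went from 52.4, 51.6 and 53.9 CPM to 73.7, 72.2 and 74.1 CPM (0.48, SE 0.078, adjusted p = 0.00187). Neither gene's groups overlapped. The FPKM ratio of SLC1A5 to SLC1A4 was 5.67, 5.97 and 5.66 in controls and 3.02, 2.65 and 3.12 in knockdown libraries, so SLC1A5 stayed the higher of the pair. The glutamate carriers of the family were near 0. SLC1A7, a glutamate carrier known from the retina, had no counts in the controls and 9, 7 and 4 in knockdown replicates 1, 2 and 3. Set against 3 counts, the limit that 0 allows over the control group, the ratio is 5.57. It takes the knockdown counts as exact and so is not a lower limit of the change. It was left out by the filter on low counts and is given here by its counts alone.

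The SLC38 family held both the highest level and some of the smallest differences. SLC38A2 stood at 1550, 1280 and 1290 CPM in controls and at 1450, 1470 and 1400 CPM in knockdown libraries, and SLC38A1, which carries glutamine and other small neutral amino acids, at 959, 730 and 724 CPM and then at 688, 767 and 697 CPM. In both genes control replicate 1 was the high library and the groups overlapped. The log2 fold changes were 0.07 (95% interval -0.17 to 0.3) and -0.17 (-0.46 to 0.13), with no call. Without both libraries that stood apart, SLC38A2 was called higher at 0.15 (SE 0.032, adjusted p = 4.78e-06, edgeR), a small change, and SLC38A1 was not called (-0.07, adjusted p = 0.071).

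SLC38A4 (ENSG00000139209, chr12:46764761-46832408, minus strand), which also carries small neutral amino acids, lies beside SLC38A1 and SLC38A2 on chromosome 12 with no other gene of the table between them, and behaved differently. It went from 23.9, 17.6 and 18.3 CPM to 7.3, 9.35 and 8.7 CPM, a log2 fold change of -1.24 (SE 0.16, adjusted p = 0.000714). The gap to SLC38A2 is 391988 bases, and that between SLC38A2 and SLC38A1 is 88171 bases.

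Of the SLC38 carriers tied to the lysosome, SLC38A9, which senses arginine there for mTORC1, stood at 40.1, 36.7 and 36.6 CPM and then at 40, 40.7 and 37.1 CPM (log2 fold change 0.05, 95% interval -0.16 to 0.27). SLC38A7, which exports glutamine and asparagine from the lysosome, went from 19.2, 18.9 and 19.9 CPM to 16.2, 16.1 and 14.3 CPM (-0.31, SE 0.1, adjusted p = 0.0361). SLC38A10, less studied and not counted as lysosomal here, went from 83.5, 88.6 and 80.9 CPM to 72.4, 67.1 and 72.3 CPM. Its log2 fold change was -0.26 (SE 0.084, adjusted p = 0.0357). The groups did not overlap in these last genes, but both calls were lost in each of 11 of 19 other settings, among them each fit that left out control replicate 2, control replicate 3, knockdown replicate 1 or knockdown replicate 3 (0.0706 to 0.137, adjusted). SLC38A6, also less studied and not counted as lysosomal, had 4.57 ± 0.16 CPM in controls and 6.05 ± 1.18 CPM under knockdown (SD, n = 3). It missed the threshold (adjusted p = 0.0908, edgeR). It was called higher without knockdown replicate 2 (adjusted p = 0.0242).

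Among the SLC6 carriers, the largest falls were in members best known from the nervous system. SLC6A15, which carries branched-chain amino acids and proline, went from 10.2, 9.55 and 9.56 CPM to 2.88, 2.38 and 2.85 CPM, a log2 fold change of -1.85 (SE 0.15, adjusted p = 8.12e-05). SLC6A17, a carrier of neutral amino acids found on synaptic vesicles, went from 33.7, 29 and 29.9 CPM to 11.1, 8.86 and 10.4 CPM, or -1.60 (SE 0.13, adjusted p = 7.82e-05). In both genes every knockdown library lay far below every control library. The 4 neural markers did not move one way. SNAP25 rose from 0.646 ± 0.184 to 2.82 ± 0.673 CPM and carried the rise of the sum, which was 2.85 to 2.96 CPM in controls and 3.38 to 6.17 CPM in knockdown libraries. RBFOX3, too low to be tested, had 0.429 ± 0.0465 and 0.284 ± 0.0353 CPM, and SLC17A7 had 1.75 ± 0.131 and 1.29 ± 0.787 CPM with no call. GFAP, also too low to be tested, had 4 counts in the controls together and 9 under knockdown. The part of such cells or genes in the SLC6 results was not tested.

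SLC6A6, the taurine carrier and the SLC6 gene of highest level here, went from 209, 216 and 208 CPM to 151, 155 and 147 CPM (log2 fold change -0.48, SE 0.075, adjusted p = 0.00147). Its groups were tight and far apart. The creatine carrier SLC6A8 stood at 105, 118 and 116 CPM and then at 113, 112 and 117 CPM, a log2 fold change of 0.01 (95% interval -0.18 to 0.21). SLC6A9, which takes up glycine, the product of the SHMT2 reaction, stood at 13.5, 14.6 and 15.3 CPM in controls and at 17.4, 17.8 and 16.8 CPM in knockdown libraries. Its groups did not overlap, but it missed the threshold (0.26, 95% interval 0.02 to 0.51, adjusted p = 0.069, edgeR). It passed when libraries were scaled by their totals alone (0.35, adjusted p = 0.0283). SLC6A16, whose substrate is not settled, had 2.12 ± 0.326 CPM in controls and 3.05 ± 0.852 CPM under knockdown, with no call (adjusted p = 0.124, edgeR). The groups of SLC6A16 barely missed overlapping, with the highest control at 2.46 CPM and the lowest knockdown library at 2.48 CPM.

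The SLC36 genes also parted. SLC36A1, which exports small amino acids such as glycine, proline and alanine from lysosomes and takes them up at the surface, went from 30.9, 36.3 and 35.6 CPM to 13.3, 14.6 and 12.3 CPM. That left 39% of the control level, a log2 fold change of -1.36 (SE 0.12, adjusted p = 0.000116). SLC36A4, a carrier of proline and tryptophan, stood at 85.9, 70.8 and 76.8 CPM and then at 76.9, 79 and 76.3 CPM, with overlapping groups and a log2 fold change of -0.01 (95% interval -0.23 to 0.22).

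Of the facilitative SLC43 carriers, SLC43A2, which carries leucine, phenylalanine and methionine, went from 17.2, 17 and 16.3 CPM to 11.7, 9.9 and 10.9 CPM (log2 fold change -0.63, SE 0.11, adjusted p = 0.00284). Its relative SLC43A1, at 1.51 ± 0.446 and 1 ± 0.083 CPM, had groups that did not overlap, with knockdown the lower, but was not called (-0.58, 95% interval -1.24 to 0.07). SLC43A3, which carries purine bases rather than amino acids, had no counts in controls and 2, 2 and 6 in the knockdown replicates.

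The 33 genes below the filter held few counts. In 9 of them there were no counts in any library, 18 had from 1 to 7 counts over all 6 libraries, and 6 had from 10 to 21. Those 6 were SLC7A10 (11 control and 10 knockdown counts), SLC6A12 (5 and 14), SLC38A5 (5 and 9), SLC6A4 (7 and 5) and, with no control counts, SLC1A7 and SLC43A3. SLC6A14, SLC3A1 and the monoamine carriers SLC6A2 and SLC6A3 were among the rest.

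Other genes that handle amino acids were taken from 4 lists. Of 18 tested carriers of other families, 11 fell and 0 rose in edgeR (61.1% called, against 51.8% of all tested genes). Without both libraries that stood apart 13 of the 18 fell, a share close to the 73.6% of all tested genes called in that fit. With all libraries, the counts were also 11 and 0 at an unadjusted p below 0.05 in edgeR. DESeq2 gave the same counts at an adjusted p below 0.05. These fits use the same libraries, and the list was chosen with earlier results of these data known. The counts are therefore no independent support for a direction. The serine carriers of the mitochondrial inner membrane fell, SFXN1 from 430 ± 33.1 to 287 ± 4.97 CPM, SFXN2 from 13.5 ± 1.99 to 8.4 ± 0.108 CPM and SFXN3 from 41 ± 1.47 to 24 ± 1.52 CPM (SD, n = 3). SLC25A38, the mitochondrial glycine carrier, fell from 50 ± 2.89 to 30.8 ± 2.07 CPM. Of the lysosomal exporters, CTNS, which carries cystine, went from 30.8 ± 2.91 to 20.5 ± 2.22 CPM and SLC17A5, which carries sialic acid, from 61.5 ± 5.78 to 45.4 ± 4.04 CPM.

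Of 12 tested partners and regulators of turnover, 2 rose and 2 fell (33.3% called, below the 51.8% of all tested genes). Without both libraries that stood apart 6 of the 12 rose and 4 fell. That share is above the 73.6% called over all genes in that fit, so the comparison with all genes turned around. TXNIP, an arrestin that removes glucose carriers from the surface, rose from 3.19 ± 0.0874 to 22 ± 2.17 CPM, and CD44, a variant of which holds SLC7A11 at the surface, from 1290 ± 26.2 to 1700 ± 236 CPM. SGK1, a kinase that keeps several carriers at the surface, fell from 132 ± 3.61 to 52.7 ± 4.2 CPM, and BSG, a partner of monocarboxylate carriers, from 507 ± 44.9 to 298 ± 47.3 CPM.

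Among 33 tested genes of amino acid sensing and mTORC1, 11 rose and 6 fell. That is 51.5% called, close to the 51.8% over all tested genes, so the calls are no result about the list, and the genes below are given for their own values. Without both libraries that stood apart 19 of the 33 rose and 9 fell, a share above the 73.6% called over all genes in that fit. RRAGB, one of the Rag GTPases that bring mTORC1 to the lysosome, rose from 6.96 ± 1.19 to 26.4 ± 3.48 CPM, while RPTOR, the subunit of mTORC1 that they bind, fell from 86.6 ± 2.4 to 43.1 ± 2.95 CPM. SESN2, a leucine sensor, rose from 21.8 ± 1 to 40.4 ± 2.03 CPM and BMT2, a sensor of S-adenosylmethionine, from 7.53 ± 0.574 to 16.2 ± 0.172 CPM. DDIT3, a target of ATF4, rose from 3.56 ± 0.206 to 11.5 ± 1.94 CPM and TFE3, a factor for lysosomal genes, from 46.1 ± 2.24 to 72.2 ± 2.97 CPM. ATF4 itself, which is controlled mainly at translation, had 233 ± 23.7 CPM in controls and 264 ± 17.6 CPM under knockdown, with overlapping groups (adjusted p = 0.184, edgeR).

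Of 22 tested enzymes that use transported amino acids, 5 rose and 11 fell (72.7% called, against 51.8% of all tested genes), and without both libraries that stood apart 6 rose and 14 fell (73.6% called over all genes). BCAT1, which takes the amino group from the branched-chain amino acids that SLC7A5, SLC6A15 and SLC43A2 carry, fell from 273 ± 47.1 to 24.9 ± 2.38 CPM (SD, n = 3). ODC1, which makes putrescine from ornithine, fell from 521 ± 35.7 to 220 ± 6.42 CPM, GOT2, the mitochondrial aspartate aminotransferase, from 188 ± 16.5 to 98 ± 4.21 CPM, and ASS1, which uses aspartate to make argininosuccinate, from 12.5 ± 0.729 to 6.32 ± 0.599 CPM. CTH, which makes cysteine from cystathionine, rose from 3.36 ± 0.276 to 11.6 ± 0.52 CPM, and ASNS, the asparagine synthetase, from 0.759 ± 0.396 to 3.67 ± 0.167 CPM.

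**Figure D4:**
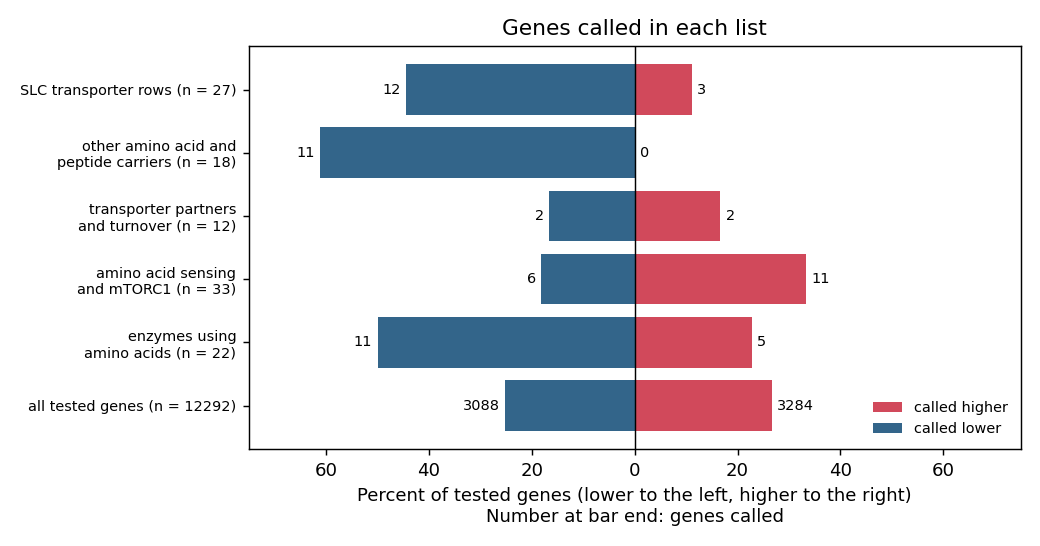
Percent of the tested genes of each list called lower (left of 0) or higher (right of 0) in the knockdown libraries (x axis), with the number of genes at each bar end and the number tested beside each name. The SLC families and the other amino acid carriers lean to the lower side (12 against 3 and 11 against 0 genes). Over all tested genes the sides are near equal (3088 and 3284). The members and lists were chosen with earlier results of these data known.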

How the data were processed

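The labels' protocols name TRIzol for RNA extraction and an NEBNext Ultra II kit for the libraries. No label or header names the aligner, counter, genome build, annotation or strand setting. Per the file headers, each gene has a deposited read count (whole numbers) and FPKM per library; the FPKM follow from the counts, lengths and column totals to within 3.8e-06. Of 19852 gene identifiers found in GENCODE 29 (GRCh38), 78.8% share a start or end with it. Counts were filtered with filterByExpr, scaled with TMM factors and tested with edgeR 4.0.16 (R 4.3.3) by the quasi-likelihood test without covariates; standard errors come from the fold change and its F statistic, and levels in CPM are TMM-scaled. The common biological coefficient of variation was 14.2%.

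The members and lists were chosen with earlier results of these data known. Every tested member is named; the 14 called members of largest change with a mean of at least 1 CPM and the 10 of highest control FPKM are given per library, and up to 6 called genes per other list, by adjusted p. ATF4, SNAP25, KRT19 and other markers were named after their values were seen. Alternatives were other scalings and filters, DESeq2 1.42.0, limma-voom and limma 3.58.1 on log2(FPKM + 1) and log2(FPKM + 0.1), stricter thresholds, a replicate block, each library left out, and a gene length trend (mgcv 1.9.3). RefSeq promoter windows matched 45 of 60 members by symbol.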

Additional observations from a re-analysis of the deposited data

How the results depend on the processing

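No member reversed its direction in any alternative where it was called. Counts of members called higher ran from 3 to 4 and lower from 10 to 13 when 1 library was left out; all genes called ran from 4748 to 6784, and the SHMT2 log2 fold change from -5.07 to -4.60. With both libraries that stood apart removed, 5 members were higher and 13 lower. All genes called fell from 6372 to 4166 at an adjusted p of 0.01 and to 4204 with at least a 1.5-fold change. With the replicate number as a block (replicate block), 3 members were higher and 10 lower, with the calls of SLC38A7 and SLC38A10 lost, and 5444 genes were called in all. Each library's deviation in log2 CPM from its own group mean was correlated over genes between control and knockdown libraries. Same-numbered libraries 1, 2 and 3 gave -0.359, -0.339 and 0.368. The highest value of any pair, 0.494, was that of control replicate 1 with knockdown replicate 2, the libraries that stood apart. Such deviations cancel within each group, so their correlations cannot decide whether replicate numbers pair the libraries. A trend on gene length accounted for 2.54% of the variance in fold change; subtracting its trend moved 9 of 27 members by more than the replicate SD, with SLC6A15 at -2.18 and SLC1A5 at -0.38. Depth limits the 33 untested members, where few counts can show only a large difference. With no filter on low counts, 4 members were higher and 10 lower, with SLC1A7 among the higher. SLC1A7 had no control counts, so that call adds nothing to its counts.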
